A study of Caenorhabditis elegans with 12 samples.

Results

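The libraries described here are 6 of the 12 whole-worm RNA-seq libraries of a series on the nematode Caenorhabditis elegans, and they were chosen by their labels, with no measured value used. In 3 of them the animals were 2 days old and in 3 they were 1 day old, and all were under RNAi against bcat-1. All 12 libraries came from hermaphrodites of the wild-type strain N2. The other 6 came from animals given L4440, the empty vector that serves as the usual control in RNAi by feeding, 3 libraries at 2 days and 3 at 1 day. In RNAi by feeding, worms eat bacteria that make double-stranded RNA of the targeted gene. The labels used here do not say from which stage age was counted, how long the RNAi lasted, or whether the libraries of a group came from separate cultures. The p-values below therefore measure only the spread between these libraries, which may be technical.

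The gene bcat-1 encodes the branched-chain amino acid transaminase, the enzyme of the first step in the breakdown of leucine, isoleucine and valine. Later steps run in mitochondria, and isoleucine and valine yield propionyl-CoA, which is toxic when it builds up. Worms dispose of it by a canonical route that needs vitamin B12, or by a shunt of other enzymes that does not. An adult hermaphrodite also makes oocytes, yolk and embryos, and a cuticle of collagens covers the body, so whole-worm RNA mixes all of these tissues.

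Levels are CPM, counts scaled to a common total, on library sizes without rRNA genes and scaled by TMM, edgeR's correction for the make-up of a library. The 6 bcat-1 libraries held 17258721 to 41403331 counts after 22 rRNA genes were removed. The whole-worm label was checked against tissue markers, and all 16 neuron markers, all 36 muscle markers and all 15 intestine markers passed the filter on low counts. The 6 yolk protein genes summed to between 54820 and 62070 CPM in these libraries. The 31 major sperm protein genes in the table summed to at most 1.13 CPM, and none of them passed the filter. They are close copies, and how reads that match several genes were counted is not given, so this sum is uncertain.

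One library stood apart and went against its label. In that library, bcat-1 day 2 replicate 3, rRNA took 41.5% of all counts, against 0.20% and 0.22% in the other bcat-1 day 2 libraries and 0.20%, 0.77% and 2.49% in the bcat-1 day 1 libraries. The targeted transcript, bcat-1 (X:12877480-12880328, WBcel235), stood at 348 CPM in that library. The other bcat-1 day 2 libraries had 14.8 and 18.2 CPM and the bcat-1 day 1 libraries 20.5, 18.97 and 28.5 CPM. The L4440 libraries had 124 to 164 CPM at day 2 and 165 to 191 CPM at day 1, so the library labelled bcat-1 day 2 replicate 3 lay above every L4440 library. Over the 6 libraries bcat-1 differed by a log2 fold change of 2.48 ± 0.92 (SE; edgeR adjusted p = 0.175), and without that library by −0.45 (adjusted p = 0.181). Genes with under 1000 bases of exon sat at a median log2 deviation of 0.27 in replicate 3 and genes over 3000 bases at −0.34, against −0.12 and 0.23 in bcat-1 day 2 replicate 1. In bcat-1 day 1 replicate 1, with 0.20% rRNA, these classes sat at 0.106 and −0.155. Short transcripts were therefore high and long ones low there, and more so in the library with the high rRNA share. Where a gene group's count of calls below was different without bcat-1 day 2 replicate 3, both counts are given. Of 113 calls in genes picked by a fixed rule, 101 held without it, and the 12 lost were in acs-2, vha-6, gas-1, fbp-1, lipl-1, spp-31, spp-18, gst-22, hsp-16.2, hsp-17, nlp-39 and nhr-112.

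**Figure D1:**
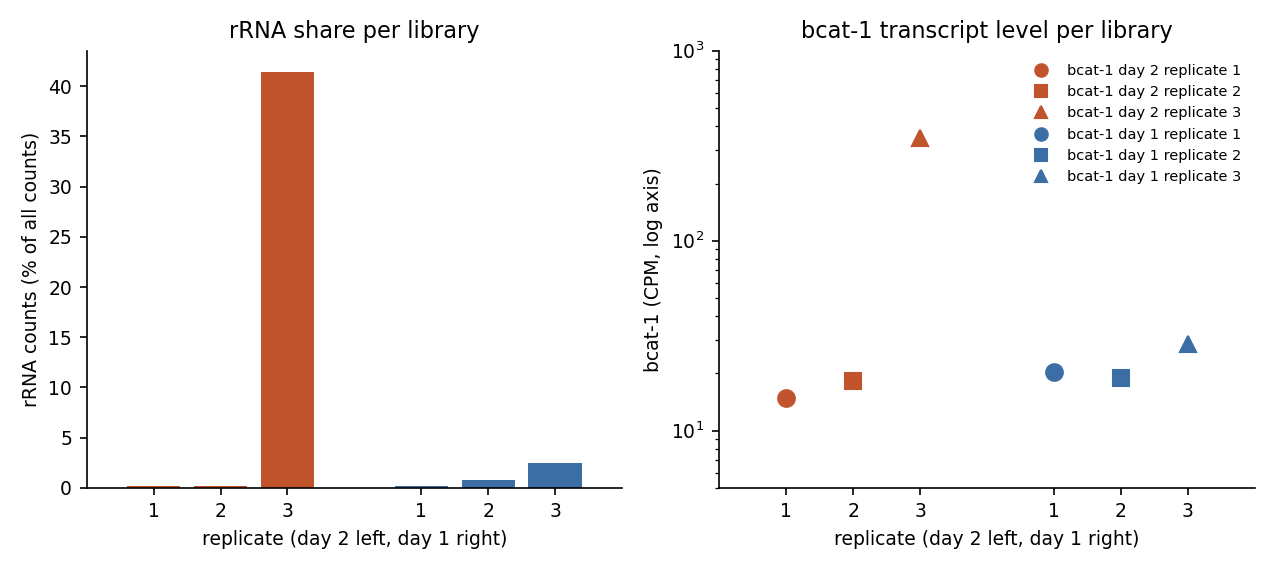
Left, share of all counts on rRNA genes in each bcat-1 library, in percent, with the 3 day 2 libraries left of the 3 day 1 libraries. Right, level of bcat-1 in the same libraries in CPM on a log axis; the library labelled bcat-1 day 2 replicate 3 has 41.5% rRNA and 348 CPM, and the other 5 have at most 2.49% and 28.5 CPM.

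The comparison asks which transcripts change between day 1 and day 2 of age when bcat-1 is the RNAi target. Of 14708 genes tested with edgeR, 579 (3.94%) differed at an adjusted p under 0.05, 293 higher (1.99%) and 286 lower (1.94%) at day 2. Counts of calls in the gene lists below are to be read beside this 3.94%. Scaled by library size alone, the split was 325 higher and 173 lower. Changes of at least 2-fold made up 265 of the calls, 165 higher and 100 lower. In all 579 genes the day 2 libraries did not overlap the day 1 libraries, which held for 21% of all genes tested. A lack of overlap given below for a called gene therefore describes its libraries and adds nothing to the call. Without bcat-1 day 2 replicate 3, 635 of 14921 genes (4.26%) were called, 246 higher (1.65%) and 389 lower (2.61%). Both fits shared 454 calls, and all 579 genes kept their sign. The count depended on the day 1 libraries too: it was 339 without replicate 1, 230 without replicate 2 and 254 without replicate 3 of bcat-1 day 1. In all 12 fits that left out 1 library, 191 genes stayed called, 93 higher and 98 lower.

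Of all the lists, the propionate shunt had the lowest median. Of its 8 listed genes 6 fell (3.94% of all genes tested were called) and none rose, and the median log2 fold change was −1.11, against 0.00594 over all genes. The enzyme of the first step, the acyl-CoA dehydrogenase acdh-1, had 509, 477 and 472 CPM at day 2, against 1076, 1170 and 1197 CPM at day 1. Its log2 fold change was −1.24 ± 0.11 (SE, adjusted p = 9.2e-05). The 3 day 2 libraries lay close together and far below the day 1 libraries. The enoyl-CoA hydratase ech-6 had 242, 243 and 281 CPM at day 2, against 517, 540 and 546 CPM at day 1 (log2 −1.07). The hydrolase hach-1 had 129.4, 132.3 and 106.9 CPM at day 2, against 242, 291 and 286 CPM at day 1 (log2 −1.15). The transhydrogenase hphd-1 had 158.3, 132.0 and 121.6 CPM at day 2, against 408, 460 and 453 CPM at day 1 (log2 −1.68). In these genes every day 2 library was below every day 1 library, also replicate 3 of day 2. That replicate was the highest of the day 2 libraries in ech-6 and the lowest in acdh-1, hach-1 and hphd-1.

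The last enzyme of the shunt, the semialdehyde dehydrogenase alh-8, fell less, with 536, 547 and 510 CPM at day 2 and 807, 869 and 824 CPM at day 1 (log2 −0.65, adjusted p = 0.00213). Its call was lost without bcat-1 day 1 replicate 2 (adjusted p = 0.0636), while the calls of the 5 other enzymes held in every fit that left out 1 library. The acyl-CoA dehydrogenase acdh-2 (II:5544778-5547492), listed with acdh-1, showed the largest fall of all named genes. It had 0.790, 0.454 and 0.432 CPM at day 2, against 6.63, 8.54 and 5.41 CPM at day 1, a log2 fold change of −3.57 ± 0.42 (SE, adjusted p = 0.000919). Per kilobase of exon, acdh-1 averaged 290 CPM at day 2 and 684 CPM at day 1, while acdh-2 averaged 0.299 and 3.66 CPM, so acdh-2 was far below acdh-1 at both ages. The nuclear hormone receptors nhr-10 and nhr-68, which switch the shunt on, were not called: nhr-68 had 43.03, 36.98 and 34.05 CPM at day 2 and 36.11, 38.98 and 41.01 CPM at day 1. Without bcat-1 day 2 replicate 3 the same list had 6 genes lower and a median of −1.1.

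None of the 6 genes of the canonical propionate pathway was called. The propionyl-CoA carboxylase subunit pcca-1 averaged 208 ± 54.5 CPM at day 2 and 225 ± 27.2 CPM at day 1 (SD, n = 3 each), and the groups overlapped. The methylmalonyl-CoA mutase mmcm-1 had 168, 160 and 111 CPM at day 2 and 139, 162 and 171 CPM at day 1. In both genes the lowest value was in bcat-1 day 2 replicate 3. The list's median was −0.09, and 0.07 without that library.

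**Figure D2:**
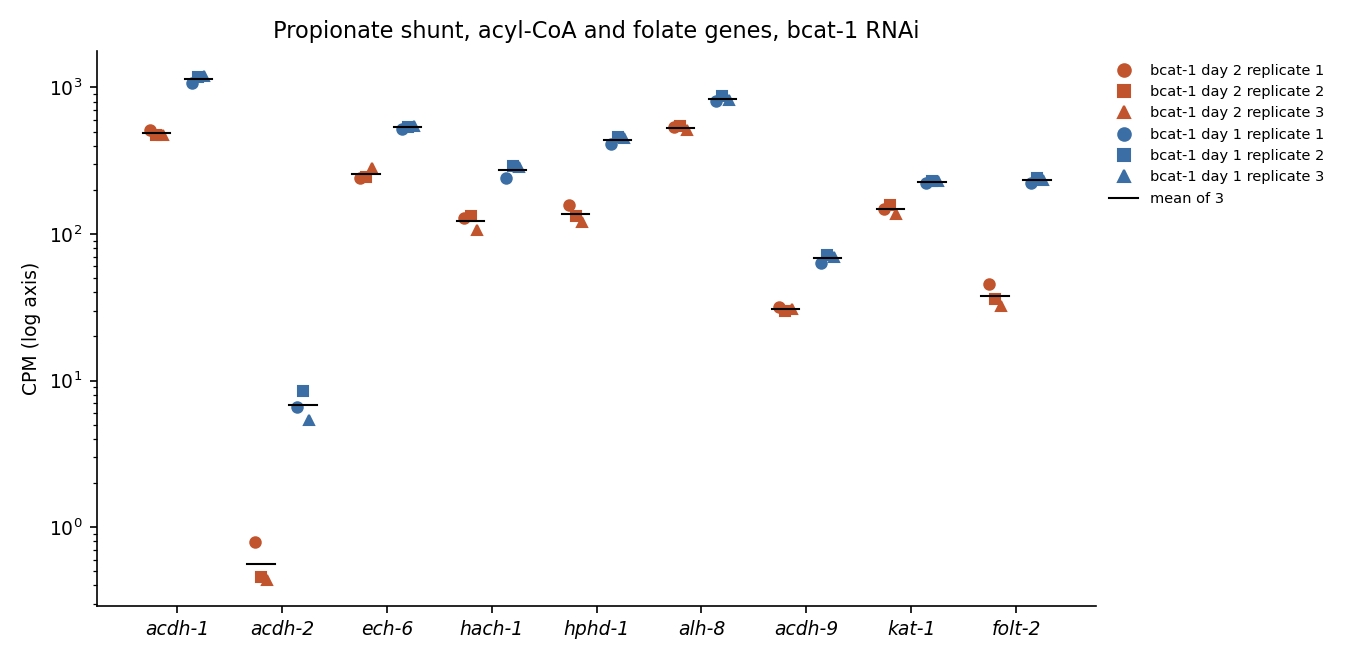
Level in CPM on a log axis of the shunt genes acdh-1, acdh-2, ech-6, hach-1, hphd-1 and alh-8, of the acyl-CoA genes acdh-9 and kat-1, and of the folate transporter gene folt-2 in each bcat-1 library, day 2 left of day 1, with the mean of 3 as a line. In every gene the 3 day 2 points lie below the 3 day 1 points, as for folt-2 with at most 45.9 CPM at day 2 and at least 221 CPM at day 1.

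Genes of branched-chain amino acid breakdown downstream of bcat-1 fell as well. Of 15 tested, 9 were lower and none higher at day 2, with a median of −0.40, and 8 were lower without bcat-1 day 2 replicate 3 (median −0.31). Of the 9, ech-6, hach-1 and alh-8 belong to the shunt list too. The thiolase kat-1 had 149, 157 and 137 CPM at day 2, against 221, 232 and 230.0 CPM at day 1 (log2 −0.63, adjusted p = 0.00107). The hydroxyisobutyrate dehydrogenase gene B0250.5 averaged 63.7 CPM at day 2 and 91.9 CPM at day 1, and the isovaleryl-CoA dehydrogenase ivd-1, of the leucine branch, 143 and 189 CPM. The branched-chain ketoacid dehydrogenase, which takes over directly from the transaminase, is built from several subunits. Its subunit dbt-1 averaged 110.2 ± 12.24 CPM at day 2 and 142 ± 2.25 CPM at day 1 (SD, n = 3 each; log2 −0.36, adjusted p = 0.0345). The subunit bckd-1A was just inside the threshold (log2 −0.43, adjusted p = 0.0496), and bckd-1B was outside it (log2 −0.22, adjusted p = 0.157). Calls of ech-6, hach-1 and kat-1 held in all 12 fits that left out 1 library, and without bcat-1 day 1 replicate 2 these 3 were the ones left of the list.

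Among acyl-CoA and fatty acid enzymes, the falls covered 10 of 42 fatty acid oxidation genes, and none rose. The list's median was −0.15, and 9 were lower without bcat-1 day 2 replicate 3. The list shares acdh-1, acdh-2, ech-6 and kat-1 with those above. The acyl-CoA dehydrogenase acdh-9 had 31.9, 29.9 and 30.9 CPM at day 2, against 63.6, 71.6 and 69.6 CPM at day 1, with a log2 fold change of −1.14 ± 0.08 (SE, adjusted p = 8.04e-05). The acyl-CoA oxidase acox-1.3 had 1.29, 1.34 and 1.57 CPM at day 2, against 5.45, 6.64 and 6.18 CPM at day 1 (log2 −2.13). Both genes had narrow groups, and both calls held in every fit that left out 1 library. The acyl-CoA synthetase acs-2 had 15.3, 2.63 and 2.32 CPM at day 2 and 27.96, 34.76 and 47.2 CPM at day 1 (log2 −2.39, adjusted p = 0.038). Its day 2 libraries were spread over a wide range, and its call was lost in 7 fits that left out 1 library, among them the one without bcat-1 day 2 replicate 3 (adjusted p = 0.0662).

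Genes that make or release fat gave 3 calls, all rises, and 3.94% of all genes tested were called. The fatty acid desaturase fat-2 had 790.4, 878 and 650.3 CPM at day 2, against 448, 482 and 532 CPM at day 1 (log2 0.67, adjusted p = 0.00769), and was the 1 call among 22 genes of fatty acid synthesis, elongation and desaturation. That list had 2 rises, fat-2 and the desaturase fat-4 (log2 0.27), and 2 falls, art-1 and let-767 (log2 −0.36 and −0.43), without bcat-1 day 2 replicate 3. The lysosomal lipase lipl-5 averaged 261 ± 9.28 CPM (SD, n = 3) at day 2, against 176, 146 and 174 CPM at day 1 (log2 0.66, adjusted p = 0.00291). The related lipl-1 had 2.71, 2.44 and 3.08 CPM at day 2, against 0.454, 0.367 and 0.742 CPM at day 1 (log2 2.397, adjusted p = 0.0411). These were 2 of 21 lipase genes, the median over the 21 was 0.45, and no lipase fell. The 1 call among them without bcat-1 day 2 replicate 3 was lipl-5. None of the 3 calls held in every fit that left out 1 library: without bcat-1 day 1 replicate 2 the adjusted p was 0.0919 for fat-2 and 0.0531 for lipl-5, and without bcat-1 day 2 replicate 3 it was 0.0706 for lipl-1.

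The folate transporter gene folt-2 (V:2872465-2875600) had one of the clearest falls of the comparison. It had 45.9, 35.98 and 32.1 CPM at day 2, against 221, 241 and 232 CPM at day 1, a log2 fold change of −2.60 ± 0.20 (SE, adjusted p = 8.04e-05). The groups were far apart, and the call held in all 12 fits that left out 1 library. In the list of 23 genes of the methionine cycle, folate and transsulfuration, 5 were lower and none higher, with a median of −0.19, and 5 were lower without bcat-1 day 2 replicate 3. The nuclear hormone receptor nhr-114, which acts in methionine and phospholipid supply, averaged 67.5 CPM at day 2 and 135 CPM at day 1. The S-adenosylmethionine synthetase sams-1 averaged 152 CPM at day 2 and 230.5 CPM at day 1, and the phosphoethanolamine methyltransferase pmt-2 averaged 249 and 385 CPM. Without bcat-1 day 1 replicate 2 folt-2 was the 1 call left in the list. Phenylalanine and tyrosine breakdown contributed 3 falls among the 12 genes listed for tyrosine and tryptophan breakdown, in the hydroxylase pah-1 (log2 −0.50), the dioxygenase hpd-1 (log2 −0.63) and the hydrolase fah-1 (log2 −0.39), and none of the 3 held without bcat-1 day 1 replicate 3. In that list 4 genes fell without bcat-1 day 2 replicate 3.

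Calls among genes of energy metabolism were all falls and small in size, and 3.94% of all genes tested were called. All 44 tested nuclear-encoded respiratory chain genes had a negative log2 fold change, with a median of −0.22, and 3 passed the test. The complex I subunit nduf-7 had 111.9, 120.2 and 111.7 CPM at day 2, against 153, 149 and 142 CPM at day 1 (log2 −0.37, adjusted p = 0.00844). All 30 genes of the TCA and glyoxylate cycle were negative too, with a median of −0.27 and 3 passing, such as the pyruvate dehydrogenase subunit pdhb-1 (log2 −0.37). The 12 mitochondrially encoded genes had 9 positive and 3 negative values, with a median of 0.10 and no call. A lean in sign without a call was also seen in other lists, with negative values in all 33 proteasome genes (median −0.11) and all 19 ribosome biogenesis genes (median −0.09). Scaled by library size alone, the median over all genes moved to 0.098 and that of ribosome biogenesis to 0.002. The proteasome median ranged from −0.185 to −0.022 among the alternatives. Leans of this size therefore depend on the scaling. The vacuolar ATPase, the proton pump of lysosomes and of the apical membranes of gut and excretory cell, had 6 of 21 subunits lower, with a median of −0.32. Its B subunit vha-12 had 260.1, 252 and 216 CPM at day 2, against 316, 352 and 331 CPM at day 1 (log2 −0.46). Without bcat-1 day 1 replicate 2 no member of the respiratory chain, TCA and vacuolar ATPase lists was called, and without bcat-1 day 2 replicate 3 the counts were 12, 3 and 4.

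Lysosomal proteases split in direction. Of 21 tested, 7 fell and 2 rose, with a median of −0.27, and the same counts were found without bcat-1 day 2 replicate 3. The intestinal aspartic protease asp-1 had 961, 781 and 793 CPM at day 2, against 1728, 1675 and 1448 CPM at day 1 (log2 −0.94, adjusted p = 0.000897). The cathepsin B-like cpr-5 had 61.5, 83.24 and 90.04 CPM at day 2, against 163, 169 and 174 CPM at day 1 (log2 −1.11). Its relative cpr-3 went the other way, with 49.9, 49.2 and 51.4 CPM at day 2, against 28.1, 22.4 and 17.3 CPM at day 1 (log2 1.15). In each of these genes the call held in all 12 fits that left out 1 library, as it did for asp-8.

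The largest rises among called genes with at least 2 CPM on average came from several families. The sodium-proton exchanger gene nhx-6 (II:1670829-1674401) had 6.77, 12.26 and 8.97 CPM at day 2, against 0.508, 0.275 and 0.353 CPM at day 1. Its log2 fold change was 4.60 ± 0.42 (SE, adjusted p = 0.00013). The gene was close to silent in all 3 day 1 libraries. The adjacent genes pud-3 and pud-4 (V:2324634-2325152 and V:2326678-2327282), named for proteins more abundant in daf-2 insulin receptor mutants, rose together. The first had 56.3, 44.6 and 30.6 CPM at day 2, against 3.63, 2.33 and 3.04 CPM at day 1 (log2 3.87), and pud-4 had 17.8, 15.3 and 11.5 CPM at day 2, against 0.962, 0.490 and 0.813 CPM at day 1 (log2 4.29). How reads that match several genes were counted is not given in the sources used here, so the levels of pud-3 and pud-4 may include or lack reads shared with similar genes. The gene T22B7.7 had 85.4, 80.1 and 94.0 CPM at day 2, against 12.05, 7.47 and 6.92 CPM at day 1 (log2 3.29), and F55G11.4 had 63.96, 90.53 and 64.64 CPM at day 2, against 14.1, 8.81 and 11.0 CPM at day 1 (log2 2.69). Every call above in this paragraph held in all 12 fits that left out 1 library, as did that of B0024.4 (log2 2.92). The call of F53A9.8 (log2 2.69) did not hold, and was lost without bcat-1 day 1 replicate 1 and without bcat-1 day 1 replicate 2.

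The list of genes downstream of the insulin-like receptor pathway (dod, dct and pud genes) held 8 rises among 21 tested and no fall, with a median of 1.02. Without bcat-1 day 2 replicate 3 it held 7 rises and 1 fall (median 0.68), and without bcat-1 day 1 replicate 2 it held 5 rises. Beside the pud genes, dod-3 had 10.5, 13.5 and 10.9 CPM at day 2, against 2.03, 1.35 and 1.31 CPM at day 1 (log2 2.88). The gene dct-17 had 18.9, 14.5 and 21.7 CPM at day 2, against 4.57, 3.89 and 4.52 CPM at day 1 (log2 2.08). The list's more abundant member dod-19 averaged 398 CPM at day 2 and 197 CPM at day 1. All 3 had day 2 libraries above every day 1 library.

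**Figure D3:**
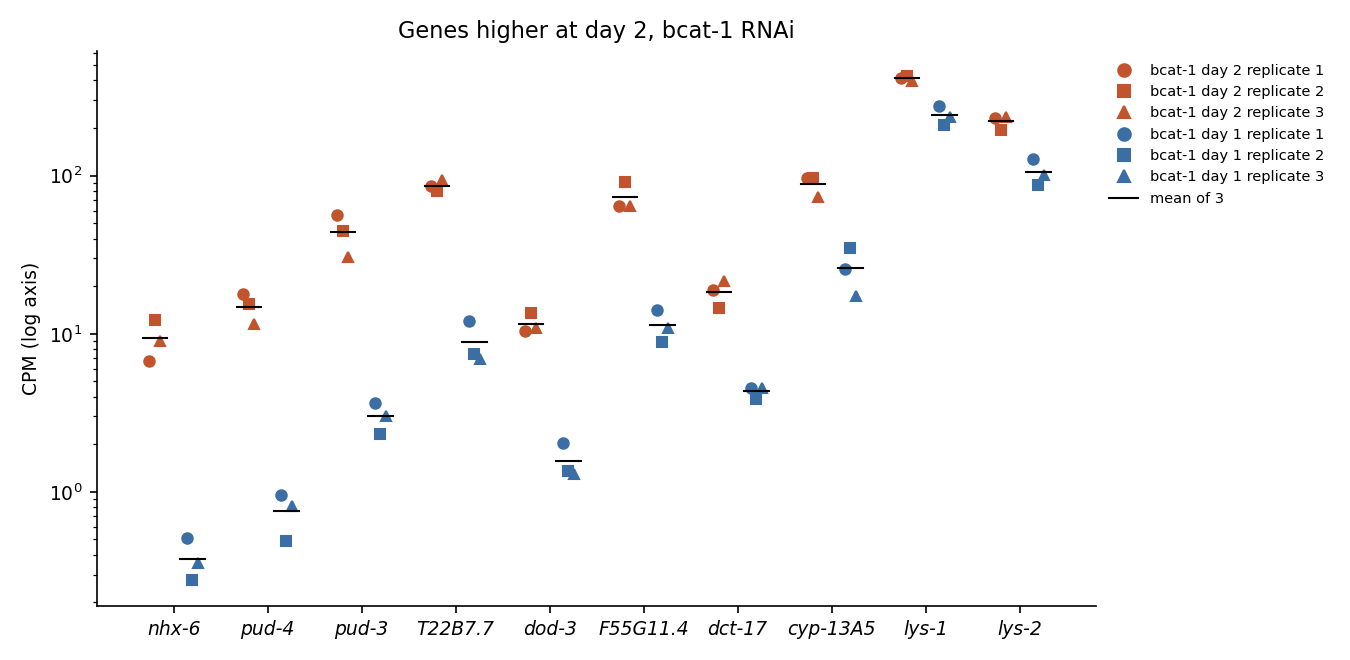
Level in CPM on a log axis of 10 genes called higher at day 2 in each bcat-1 library, day 2 left of day 1, with the mean of 3 as a line. In every gene the 3 day 2 points lie above the 3 day 1 points, from nhx-6 with at least 6.77 CPM at day 2 and at most 0.508 CPM at day 1 to lys-1 with at least 396 and at most 275 CPM.

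Calls among lysozymes and small antimicrobial peptides were all rises, while saposin-like proteins (2 rises and 1 fall among 20, and 1 fall without bcat-1 day 2 replicate 3) and C-type lectins went both ways. Of 11 lysozymes, which break bacterial cell walls, 3 rose and none fell, with and without bcat-1 day 2 replicate 3. The most changed, lys-2, had 231, 196 and 234 CPM at day 2, against 127, 87.8 and 102 CPM at day 1 (log2 1.06, adjusted p = 0.00263), and lys-1 had 417, 427 and 396 CPM at day 2, against 275, 210.1 and 236 CPM at day 1 (log2 0.78). Both calls held in all 12 fits that left out 1 library, while lys-7 (log2 1.06, adjusted p = 0.0314) had an adjusted p of up to 0.12 in those fits. Of 30 small antimicrobial peptides 5 rose and none fell. The caenacin gene cnc-4 had 10.7, 8.80 and 15.3 CPM at day 2, against 2.62, 1.81 and 0.954 CPM at day 1 (log2 2.67, adjusted p = 0.00291). The caenacin gene cnc-6 had 21, 25 and 24 counts at day 2 and 1 count in each day 1 library, a ratio of 24.8 with an exact 95% interval of 8.13 to 123 for counting error only. As a whole the 30 peptide genes stood highest in bcat-1 day 2 replicate 3, with a mean log2 deviation of 0.77 against 0.02 and −0.03 in the other day 2 libraries and −0.10, −0.29 and −0.37 at day 1. The list's median was 0.43, and −0.04 without that library, in which 4 members rose and 2 fell. The part of that library's transcript length pattern in this was not tested.

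C-type lectins, secreted or membrane proteins with a carbohydrate-binding fold, gave 6 rises and 8 falls among 106 tested, and 6 rises and 5 falls without bcat-1 day 2 replicate 3. The gene clec-65 had 121.1, 111.8 and 124.4 CPM at day 2, against 83.2, 74.1 and 72.6 CPM at day 1 (log2 0.64, adjusted p = 0.00161). The gene clec-48 had 12.4, 10.3 and 16.7 CPM at day 2, against 32.53, 33.01 and 32.71 CPM at day 1 (log2 −1.33, adjusted p = 0.00163). Neither pair of groups overlapped, and 4 of the 14 calls (clec-65, clec-48, clec-196 and clec-10) held in every fit that left out 1 library. Without bcat-1 day 1 replicate 2, 1 lectin rose, and without bcat-1 day 1 replicate 3, 3 fell.

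Among enzymes that modify foreign compounds, cyp-13A5, a cytochrome P450, had 96.95, 97.27 and 73.13 CPM at day 2, against 25.5, 34.9 and 17.3 CPM at day 1 (log2 1.78, adjusted p = 0.00418). It was 1 of 2 rises and 2 falls among 62 P450 genes, beside 3.94% called of all genes tested. The P450 counts were the same without bcat-1 day 2 replicate 3. Near-identical copies in this cluster make the split between them uncertain. Of 59 UDP-glucuronosyltransferases, which conjugate small molecules, 6 fell and 1 rose, and 6 fell and 2 rose without bcat-1 day 2 replicate 3. The largest of these falls was in ugt-65, with 0.975, 0.693 and 1.46 CPM at day 2, against 4.20, 2.94 and 3.46 CPM at day 1 (log2 −1.80). Of 41 glutathione S-transferases 4 rose. The gene gst-24 averaged 6.71 CPM at day 2 and 2.54 CPM at day 1 (log2 1.39, adjusted p = 0.024), and gst-5 had 17.63, 17.81 and 28.97 CPM at day 2, against 11.79, 10.59 and 11.45 CPM at day 1 (log2 0.92). No glutathione S-transferase call held without bcat-1 day 1 replicate 2, and without bcat-1 day 2 replicate 3 there were 3 rises and 4 falls. The metallothionein mtl-1, a metal-binding protein, had 11.1, 6.81 and 6.43 CPM at day 2, against 1.39, 1.25 and 1.70 CPM at day 1 (log2 2.50, adjusted p = 0.0309). It was the 1 call among 27 antioxidant genes, with and without bcat-1 day 2 replicate 3, a share close to that over all genes. Its adjusted p went up to 0.106 when 1 library was left out.

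Cuticle collagens were the list with the most falls. Of 105 collagens tested, 25 fell and none rose at day 2, yet the median of the 105 was 0.27. The 25 that fell had a median level of 161 CPM over the 6 libraries, and the 80 that were not called had 1.18 CPM, with a positive log2 fold change in 61. The uncalled collagens reached 665 CPM, and whether a gene passes the test depends on its level as well as on its change. Summed over the 25, the libraries held 2767, 2529 and 4486 CPM at day 2, against 6976, 8405 and 7245 CPM at day 1. Summed over the 80, they held 1435, 1265 and 2504 CPM at day 2, against 2237, 2066 and 1901 CPM at day 1, and these groups overlapped. The adult collagen col-19 had 103, 102 and 148 CPM at day 2, against 242, 329 and 285 CPM at day 1 (log2 −1.28, adjusted p = 0.00177). The abundant col-119 had 234, 207 and 349 CPM at day 2, against 639, 859 and 773 CPM at day 1 (log2 −1.52, adjusted p = 0.00107). The gene col-20 had 92.5, 69.5 and 168 CPM at day 2, against 419.6, 589 and 514 CPM at day 1 (log2 −2.21, adjusted p = 0.00142). In each, bcat-1 day 2 replicate 3 was the highest of the day 2 libraries and still below every day 1 library.

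Without bcat-1 day 2 replicate 3, 34 collagens fell, the 25 among them, and the median became −0.31. With only the 6 compared libraries in the fit 8 of the 25 were called, and without bcat-1 day 1 replicate 2, 13 collagens fell. The calls of col-19, col-119 and col-20 held in all of these fits. The gene col-93, which had the largest fall among collagens, had 22.1, 19.1 and 96.0 CPM at day 2, against 252, 355 and 230 CPM at day 1 (log2 −2.63, adjusted p = 0.0169). Its day 2 libraries differed among themselves, and its adjusted p was 0.0572 without bcat-1 day 1 replicate 2 and 0.0912 with only the 6 compared libraries. Its log2 fold change was −3.76 without bcat-1 day 2 replicate 3. Collagens are a large family with similar sequences, so the split of reads between close copies is uncertain.

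Moulting and body-shape genes, some of them collagens, and cuticlins had positive medians and no call. The 35 moulting and body-shape genes had a median of 0.97, and the 29 cuticlins had a median of 1.01. The medians were 0.53 and 1.07 without bcat-1 day 2 replicate 3, and 1 cuticlin, cutl-13, rose. Mean log2 deviations of the moulting genes were 0.85, −0.45 and 0.90 at day 2 and −0.92, −0.49 and 0.12 at day 1. Replicate 2 of day 2 therefore lay with the day 1 libraries while replicates 1 and 3 lay above them. The collagen dpy-10, which shapes the body, averaged 31 ± 17 CPM at day 2 and 9.92 ± 2.25 CPM at day 1 (SD, n = 3 each; log2 1.65, adjusted p = 0.0627). All 24 cilium markers were positive, with a median of 0.85 and no call, also without bcat-1 day 2 replicate 3. Their mean deviations were 1.04, −0.18 and 0.23 at day 2 and −0.38, −0.49 and −0.22 at day 1, so the ages did not overlap, day 2 replicate 2 lay just above the day 1 libraries and the day 2 group was widely spread. The 64 hedgehog-related and patched-related genes had a median of 0.69, and the 2 called, the groundhog genes grd-3 and grd-5, fell. Both fell and ptr-10 rose without bcat-1 day 2 replicate 3. The gene grd-3 had 11.6, 13.8 and 19.2 CPM at day 2, against 48.3, 47.1 and 41.7 CPM at day 1 (log2 −1.63, adjusted p = 0.000324).

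**Figure D4:**
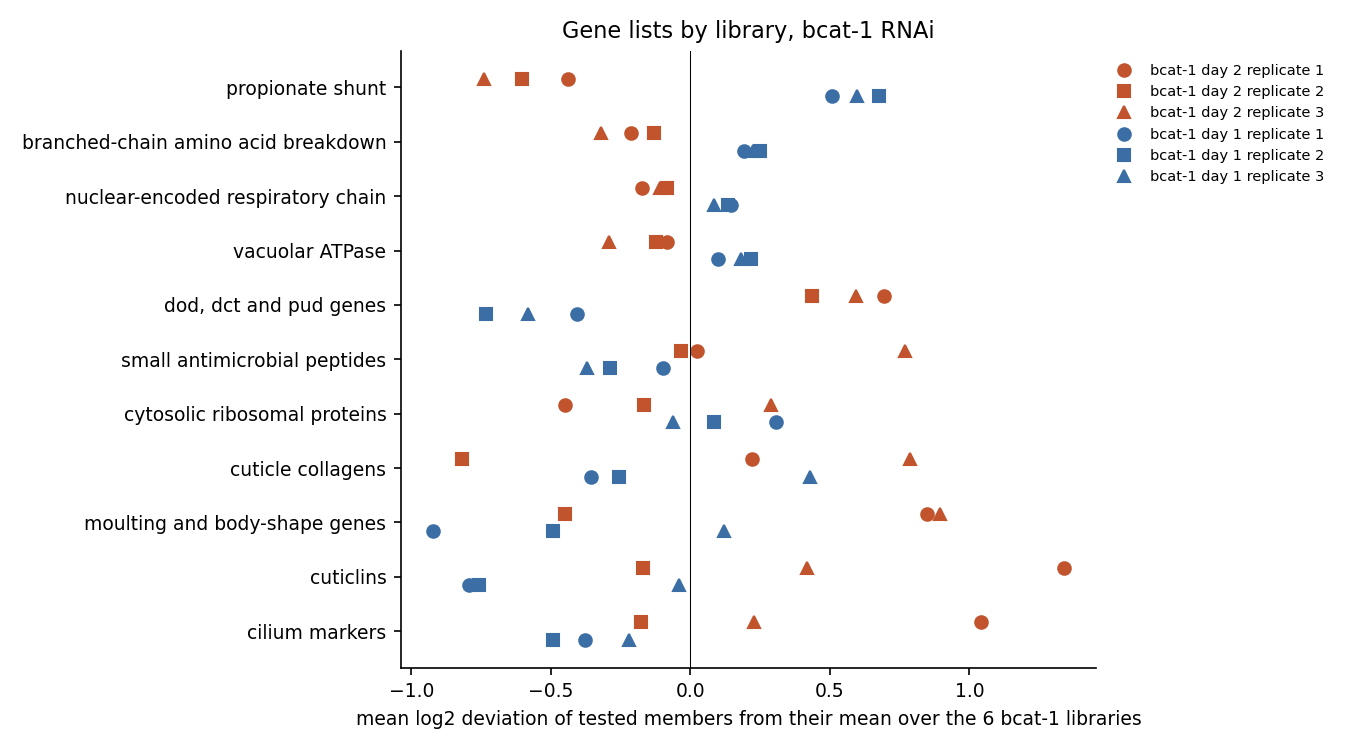
Mean log2 deviation of the tested members of 11 gene lists from their mean over the 6 bcat-1 libraries, per library, day 2 above day 1 in each list. The ages separate for the propionate shunt (−0.74 to −0.44 at day 2, 0.51 to 0.68 at day 1), whereas for moulting genes day 2 replicate 2 at −0.45 lies among the day 1 libraries.

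Markers of tissues and of embryos were read beside these groups. In bulk RNA, fewer cells of a type and less RNA per cell cannot be told apart. Of 16 neuron markers 15 had a positive log2 fold change, with a median of 0.34 and no call. The 15 somatic gonad and vulva markers had a median of 0.15 and no call, and 1 rose without bcat-1 day 2 replicate 3. Of 13 epidermis markers 1 fell, col-19, with a median of −0.02. Of 36 muscle markers 7 fell and none rose, and 6 fell without bcat-1 day 2 replicate 3. Their median was −0.13, with 10 positive and 26 negative values. The troponin T gene tnt-2 had 112.3, 92.58 and 135.9 CPM at day 2, against 224, 282 and 225 CPM at day 1 (log2 −1.102, adjusted p = 0.00207), and the thin-filament gene unc-87 had 114.2, 99.97 and 116.2 CPM at day 2, against 174, 195 and 174 CPM at day 1 (log2 −0.72). Summed muscle markers ranged from 3084 to 4262 CPM at day 2 and from 4770 to 5726 CPM at day 1. Of 15 intestine markers 2 fell, asp-1 and the intestinal actin act-5 (log2 −0.54), the same count as without bcat-1 day 2 replicate 3. The median was −0.03, with 7 positive and 8 negative values. Summed levels were 3158 to 3291 CPM at day 2 and 3790 to 4112 CPM at day 1. The fall of asp-1, with levels given above, was about as large as that of the sum, so the other markers together did not fall. Intestinal genes among the metabolic groups above were not set against the amount of intestinal RNA, and its part in their falls was not tested.

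Early embryonic factors also fell, 8 of 49, and none rose. Their median was −0.40, and 8 fell and 2 rose without bcat-1 day 2 replicate 3. The homeobox gene ceh-51, of the embryonic mesoderm, had 0.896, 1.55 and 2.05 CPM at day 2, against 3.90, 3.73 and 4.06 CPM at day 1 (log2 −1.40, adjusted p = 0.0111). The gene sdz-30, one of the genes that depend on the maternal factor SKN-1 in the embryo, had 14.5, 11.0 and 9.08 CPM at day 2, against 23.04, 22.09 and 26.99 CPM at day 1 (log2 −1.05). In both genes the ages did not overlap, and ceh-51 was the less abundant. Germline lists gave no call: none of 29 oocyte and maternal regulators, 29 germline stem cell and meiosis genes, 23 P granule and small RNA genes, 15 eggshell genes or 35 DNA replication genes passed, and their medians lay between −0.13 and −0.03. Summed yolk protein levels overlapped between the ages, and the gene with the largest fold change, vit-1, had 1810, 2042 and 1975 CPM at day 2 and 3143, 3189 and 2786 CPM at day 1 (adjusted p = 0.0568), with reads shared among close copies.

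Cytosolic ribosomal protein genes leaned downward without a call. Of 81 tested, 79 were negative with a median of −0.20, and without bcat-1 day 2 replicate 3 the median was −0.42 with 2 falls. Their summed level was 69950, 85390 and 112900 CPM at day 2, against 115300, 100400 and 92660 CPM at day 1. The groups overlapped, and bcat-1 day 2 replicate 3, where short transcripts were high, lay among the day 1 libraries.

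Calls among signalling genes were few, beside 3.94% of all genes tested, and are given as single genes. The insulin-like peptide ins-19 had 24.3, 8.08 and 17.6 CPM at day 2, against 3.05, 3.21 and 3.46 CPM at day 1 (log2 2.36, adjusted p = 0.0243), the 1 call among 24 insulin-like genes. Of 98 neuropeptide genes nlp-34, which is also among the small antimicrobial peptides that rose, and nlp-39 rose (log2 2.24 and 2.74). In this list 1 rose and 2 fell without bcat-1 day 2 replicate 3. Of 189 nuclear hormone receptors nhr-112 rose (log2 0.90) and nhr-114 and nhr-205 fell, nhr-205 by 1.51 on the log2 scale, and without that library the 2 falls were left. The body-size gene lon-1, which acts in the TGF-beta pathway, had 32.6, 32.2 and 27.3 CPM at day 2, against 45.8, 50.3 and 49.8 CPM at day 1 (log2 −0.66, adjusted p = 0.00418). The chemoreceptor-family gene sri-40 had 3.72, 5.50 and 6.11 CPM at day 2, against 32.9, 33.75 and 29.04 CPM at day 1 (log2 −2.65, adjusted p = 7.7e-05). The calls of sri-40 and nlp-34 held in all 12 fits that left out 1 library, whereas ins-19 reached an adjusted p of 0.0923 and lon-1 of 0.0605 in them.

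The change with age on L4440, measured in 6 other libraries, gives the same comparison in animals whose bcat-1 was not targeted. On L4440 306 genes (2.08%) were called, 132 higher (0.897%) and 174 lower (1.18%), and 208 genes were called on both foods, all with the same sign. These are 35.9% of the bcat-1 calls and 68% of the L4440 calls. The shares rest on the L4440 count, which was 530 without bcat-1 day 2 replicate 3, 1002 by DESeq2, 83 when L4440 day 1 replicate 2 was left out and 1253 (926 higher) when L4440 day 2 replicate 2 was left out. Of the 579 genes called on bcat-1 RNAi, 558 (96.4%) had the same sign on L4440, against 73.6% of all genes tested. The shunt list fell on L4440 too, with the same 6 of 8 genes called and a median of −0.57, beside −1.11 on bcat-1 RNAi. Collagens gave 11 falls and 2 rises there, and the dod, dct and pud genes 7 rises.

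**Figure D5:**
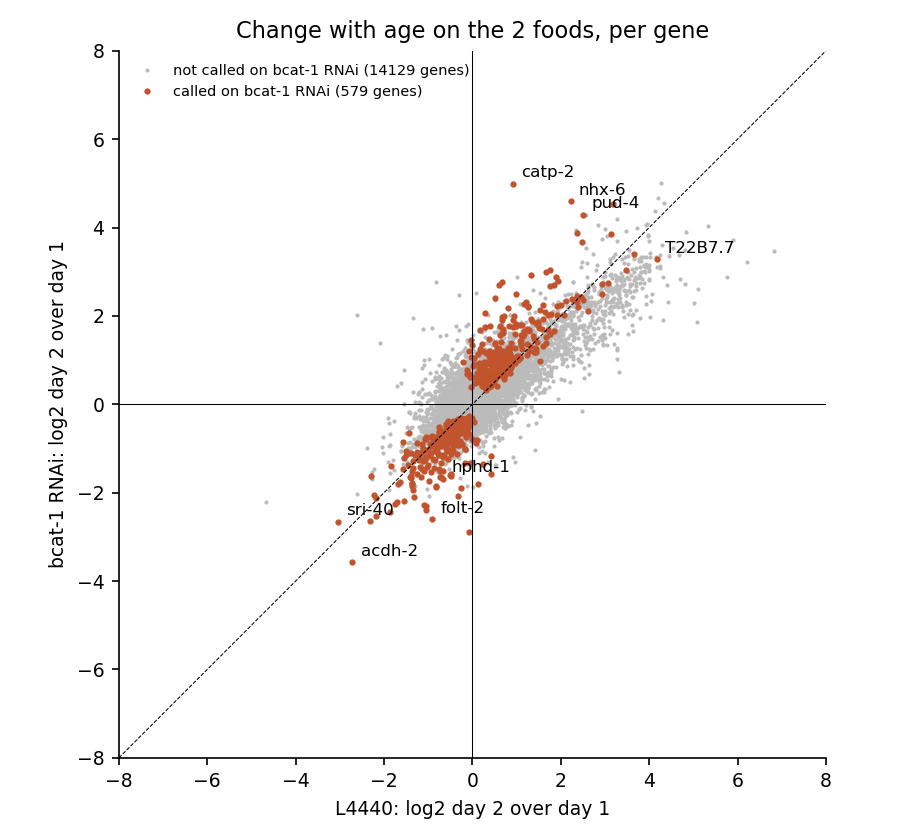
Log2 fold change of day 2 over day 1 on bcat-1 RNAi (vertical axis) against the same on L4440 (horizontal axis) for 14708 genes, with the 579 genes called on bcat-1 RNAi in orange and the line of equal change dashed. Most called genes lie to the upper right or lower left of the crossing of the axes; acdh-2 and T22B7.7 changed strongly on both foods, and folt-2 and catp-2 lie well off the dashed line.

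The test of the difference between the age effects called no gene with edgeR (0% of those tested), with 390 genes at an unadjusted p under 0.05. DESeq2 called 12 genes and limma-voom none, and edgeR without a filter on low counts called 1. On the first principal component of all 12 libraries the day 2 libraries ranged from −3.1 to 63 on bcat-1 RNAi and from −10.4 to 73.2 on L4440, and the day 1 libraries from −44.3 to −9.2 and from −45.4 to −11.6. The model has no block for a spread that both foods share and keeps it in the residual, and its part in the count of 0 was not tested. By the smallest p, the leading genes were folt-2, hphd-1, ugt-6 and C23H5.8 in the negative direction and F17C11.11, catp-2, F10E9.12 and Y51A2D.13 in the positive. For folt-2 the L4440 libraries had 172, 240.3 and 136 CPM at day 2 and 345, 389 and 294 CPM at day 1, beside the steeper fall on bcat-1 RNAi. The difference was −1.70 ± 0.27 (SE, log2), with an adjusted p of 0.372 by edgeR and 2.67e-05 by DESeq2. For hphd-1 the L4440 libraries had 333, 389.7 and 286 CPM at day 2 and 507, 579 and 511 CPM at day 1, and the difference was −1.02 ± 0.18 (SE; adjusted p = 0.372 by edgeR, 0.000842 by DESeq2). Both genes fell on both foods.

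Among the rest, F17C11.11 had 67.99, 85.05 and 90.26 CPM at day 2 and 43.9, 43.9 and 38.3 CPM at day 1 on bcat-1 RNAi, and 45.1, 40.02 and 33.08 CPM at day 2 and 39.6, 43.1 and 53.5 CPM at day 1 on L4440. The gene rose on bcat-1 RNAi (log2 0.95, adjusted p = 0.00432), and its L4440 groups overlapped. The cation-transporting ATPase gene catp-2 had 33, 68 and 13 counts at day 2 and 1 count in each day 1 library on bcat-1 RNAi, a ratio of 40.3 with an exact 95% interval of 13.5 to 198 for counting error only. On L4440 it stayed between 0.0233 and 0.0948 CPM in all 6 libraries. The difference in age effect for catp-2 had an adjusted p of 0.711 by edgeR, and DESeq2 gave none. For F17C11.11 the adjusted p was 0.372 by edgeR and 0.00171 by DESeq2, and for C23H5.8 it was 0.372 and 0.000842 by the same tools. For F10E9.12 it was 1.0 by edgeR and 0.0737 by DESeq2, and for Y51A2D.13 1.0 and 0.11.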

How the data were processed

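The authors deposited a table of raw counts per gene for 12 libraries and a table of RPKM values, which was not used here. Per the submitters' processing notes, bcl2fastq 1.8.4, STAR 2.4.1d and featureCounts 1.4.6-p4 were used with WBcel235; per the labels, libraries were made with a TruSeq kit from total RNA. Strand setting and treatment of reads that match several genes are not given in the sources used here. Of 46748 genes in the deposited count table, 22 rRNA genes were removed, and the rRNA share ranged from 0.07% to 41.5% of 29291731 to 43855795 counts per library. Gene names and positions came from Ensembl release 115.

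The counts were tested with edgeR 4.0.16 (R 4.3.3): TMM, filterByExpr by group, 1 model with a mean for each of 4 groups of 3 libraries (8 residual degrees of freedom), quasi-likelihood F test and Benjamini-Hochberg adjustment over every tested gene (threshold 0.05). CPM values here were computed from the deposited counts. Standard errors were derived from the fold change and F. Lists are described by counts of calls and medians, with no set test. The script was tested on simulated data. Replicate numbers follow the order of the samples and pair nothing.

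Named genes were bcat-1; the 12 largest called changes in each direction with at least 2 CPM on average and libraries that do not overlap; up to 4 called members per list and direction by adjusted p; and the 4 smallest p in each direction of the difference between age effects. Other genes named as list members, among them uncalled ones, were chosen after their values were seen. The members and the 58 lists were chosen with earlier results of these data known. Alternatives were other scalings, DESeq2 1.42.0, limma-voom 3.58.1, other filters, a test against a fold of 1.5, fits of the compared libraries alone, rRNA genes kept, and fits without single libraries. Depth limits precision mostly below 1 CPM; intervals cover counting error only, and reads were not collapsed to molecules.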

Additional observations from a re-analysis of the deposited data

Results flagged for a closer look

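In 2 genes among those named, every day 2 library lay on one side of every day 1 library on bcat-1 RNAi and on the opposite side on L4440. Both were among the genes named for the smallest p of the difference between the age effects, which favours such a pattern. Its share over all genes tested was not counted. The glucuronosyltransferase gene ugt-6 had 1.82, 1.27 and 1.24 CPM at day 2 and 3.31, 2.69 and 3.81 CPM at day 1 on bcat-1 RNAi. On L4440 it had 3.61, 3.89 and 4.01 CPM at day 2 and 2.53, 3.31 and 2.69 CPM at day 1. The age effects differed by −1.597 on the log2 scale, bcat-1 RNAi minus L4440, with an adjusted p of 0.372 by edgeR and 0.00209 by DESeq2. The gene Y51A2D.13 had 33.6, 37.2 and 30.6 CPM at day 2 and 26.78, 28.42 and 25.97 CPM at day 1 on bcat-1 RNAi. On L4440 it had 26.99, 25.54 and 27.08 CPM at day 2 and 33.1, 33.9 and 50.6 CPM at day 1, and the difference of 0.8839 had an adjusted p of 1.0 by edgeR. By edgeR neither difference passed the test across all genes, and by DESeq2 that of ugt-6 did and that of Y51A2D.13 did not (adjusted p = 0.11).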

How the results depend on the processing

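No paired analysis was possible because the labels give no replicate number that libraries of different groups share. Leaving out 1 library at a time, the calls on bcat-1 RNAi ranged from 230 to 716 (111 to 412 higher, 119 to 389 lower) and those on L4440 from 83 to 1253; the difference between the age effects gave none in any of these fits. DESeq2 called 1015 genes on bcat-1 RNAi (518 higher, 497 lower), 1002 on L4440 and 12 for the difference. With no filter, 823 genes were called on L4440 and 1 for the difference. Library size alone gave 173 lower genes on bcat-1 RNAi. Against a fold of 1.5, 87 genes (48 higher, 39 lower) were called on bcat-1 RNAi and 35 on L4440. With the 6 bcat-1 libraries alone 224 were called (131 higher, 93 lower). Without both libraries over 5% rRNA, 180 genes were called higher. A fit of the 5 bcat-1 libraries without day 2 replicate 3, chosen after seeing the data, called 372 (161 higher, 211 lower). The bcat-1 transcript, for which DESeq2 gave no adjusted p and which no other of these fits called, changed sign to −0.453 without day 2 replicate 3, −0.453 without both libraries over 5% rRNA and −0.459 in the 5-library fit. Of 113 named calls 32 held in every alternative and 56 in all 12 fits without 1 library, and none changed sign. Cuticle collagens, histones, autophagy genes, mitochondrially encoded genes, canonical propionate genes, small antimicrobial peptides, C-type lectins, glutathione S-transferases, heme-responsive genes, insulin-like peptides, neuropeptides and epidermis markers had medians of the opposite sign without bcat-1 day 2 replicate 3. Scaled by library size alone, medians changed sign for yolk protein, eggshell, oocyte and maternal, germline stem cell and meiosis, and ribosome biogenesis genes. They also did so for autophagy genes, canonical propionate genes, heat shock chaperones, intestine markers and epidermis markers. The cause of these changes was not tested.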

Other observations

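Of the 579 genes called on bcat-1 RNAi, 425 belong to none of the 58 lists. Some of them share a gene name family; the families below were picked after the calls were seen, and 3.94% of all genes tested were called. The tetraspanin genes tsp-1, tsp-2 and tsp-3, whose products sit in membranes, were 3 rises among 17 tested, though tsp-3 was not called without bcat-1 day 2 replicate 3 (adjusted p = 0.0818). The neighbours tsp-2 and tsp-1 (III:8236928-8237935 and III:8238001-8239423) had log2 fold changes of 1.93 and 2.25, with adjusted p-values of 0.00133 and 0.00273. The claudin-like genes clc-1, clc-11 and clc-19 were 3 rises among 20 tested, and ule-1, ule-2 and ule-4, named for secreted uterine proteins, 3 rises among 5. The aldehyde dehydrogenase genes alh-6, alh-9 and alh-10 were 3 falls among 11 tested that were in no list. The calls of clc-1, clc-19 and alh-10 were also lost without that library, with adjusted p-values of 0.0567, 0.0595 and 0.0572.

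The 3 adjacent genes on chromosome V named F18E3.11, F18E3.12 and F18E3.13 fell together (V:7413482-7416433), with log2 fold changes of −2.08, −2.89 and −1.89 and adjusted p-values of 0.000916, 0.00263 and 0.000916. The aquaporin genes aqp-7 and aqp-8, for water and glycerol channels, fell too (log2 −0.81 and −0.99). They were picked after the calls were seen, and the other aquaporin genes tested were not counted. The cation-transporting ATPase gene catp-3 rose (log2 1.4, adjusted p = 0.0104) beside catp-2, while catp-1 and catp-4 were not called (log2 −0.18 and 0.02). The pud-like gene pudl-2 fell (log2 −2.3, adjusted p = 0.00486), in contrast to pud-3 and pud-4.

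The first principal component of all 12 libraries held 54.9% of the variance and spread libraries of 1 group widely. The bcat-1 day 2 libraries lay at 63, −3.1 and 27 and the L4440 day 2 libraries at 73.2, −10.4 and 40.6, while the bcat-1 day 1 libraries lay at −44.3, −39.9 and −9.2 and the L4440 day 1 libraries at −45.4, −40 and −11.6. The labels name no batch that could be set beside these values.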
